A study of Mus musculus with 2 samples.

Results

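Type 1 conventional dendritic cells (cDC1s) of the mouse tumor were chosen by their own RNA. A cell was taken when Xcr1 and Clec9a summed to at least 2 UMIs, the T cell genes Cd3d, Cd3e and Cd3g to at most 2, and the macrophage genes C1qa, C1qb and C1qc to under 10. Cells with at least 2 UMIs of Ccr7 and at least 2 of Fscn1, the mature dendritic cells, were set aside. A UMI (unique molecular identifier) counts 1 captured RNA molecule. The rule took 61 of 5022 cells, 13 in the WT-labelled library and 48 in the KO-labelled one. Because cells were selected on these genes, their levels describe the choice and are not results.

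The cells are tumor-infiltrating immune cells from subcutaneous B16-OVA melanomas, sorted as DAPI-CD45.2+ cells at day 14 and sequenced on the 10x Genomics Chromium 3′ platform. The groups were *Maoa* WT mice, the wild type of a study that worked in C57BL/6J, and *Maoa* KO mice, which carry the hypomorphic Maoa tm1Shih allele backcrossed for more than 9 generations to C57BL/6J. Mice of both groups were 8 to 12 weeks old. *Maoa* encodes monoamine oxidase A, which degrades serotonin and other monoamines, and the comparison asks how its loss in the whole mouse alters immune cells of the tumor. Each library pooled 10 tumors and was loaded with 10000 cells. With 1 library per genotype there was no replicate and no test between genotypes: every difference below is between 2 libraries, and genotype, pool and library cannot be told apart.

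cDC1s are the dendritic cells that excel at cross-presentation, the loading of engulfed tumor antigen onto MHC class I for CD8 T cells. They develop under the transcription factors Irf8, Batf3 and Id2, expand in response to Flt3 ligand, find dying cells through the receptor Clec9a and meet T cells and NK cells through the chemokine receptor Xcr1. In tumors they are a rare population that carries antigen to draining lymph nodes and supports CD8 T cells through chemokines and cytokines.

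The libraries held 2392 cells with 28801253 UMIs (WT) and 2630 cells with 23702018 UMIs (KO), and 13 barcode sequences occurred in both, none of them in a cDC1. Over all cells *Maoa* (chrX:16619698-16687818) had 7 UMIs labelled WT and 15 labelled KO, and whether the 3′ tag lies within the altered part of the allele is not given in the sources used here, so it checks neither label. Among cDC1s *Maoa* had 0 UMIs in both libraries. For a gene with no UMI a limit of 3 UMIs was taken, which is 14.7 CPM and 3.72 CPM. Y-linked genes had 3273 and 2797 UMIs over all cells and Xist 2 and 0, while the study states female mice unless otherwise noted. In each pair of values below the WT-labelled library comes first, and a log2 ratio is KO over WT. CPM scales a gene's UMIs to 1000000 UMIs of the same cells. All intervals are exact at 95% and cover counting error only, since cells of 1 library are not replicates.

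cDC1s made up a larger part of the library labelled KO. They were 0.543% (0.290 to 0.928) of cells labelled WT and 1.83% (1.35 to 2.41) of cells labelled KO. Among the 4 dendritic cell classes (cDC1, Cd209a cells, Ccr7 Fscn1 cells and Siglech cells, the last with the pattern of plasmacytoid dendritic cells), they were 11.6% (6.33 to 19.0) of 112 cells and 17.6% (13.3 to 22.6) of 273 cells, intervals that overlap. Cd209a cells also took a larger share of the library labelled KO (1.67% against 5.06%). More cells of a class in a pool and better capture of that class cannot be told apart with 1 library per genotype.

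The cDC1s were deep cells. They held 204681 UMIs (WT) and 805564 UMIs (KO), with 7011, 13647 and 25221 UMIs in the lowest, median and highest cell labelled WT and 10769, 15900.5 and 33704 in those labelled KO. Of 78 cells that met the Xcr1 and Clec9a threshold, 14 were left out for Cd3 and 3 for C1q, and none was a Ccr7 Fscn1 cell. At the edge of the rule, the 13 cells with exactly 2 UMIs of Xcr1 and Clec9a had 692 CPM of Cd24a, 281 of Wdfy4, 140.3 of Itgae and 1363 of Naaa. The 35 cells with exactly 1 UMI that met all else had 323, 136, 53.9 and 559 CPM.

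Xcr1 was found in 11 of 13 and 45 of 48 cells and Clec9a in 9 of 13 and 40 of 48 cells, with both in 7 and 37. Xcr1 ran from 0 over a median of 5 to 12 UMIs per cell labelled WT and from 0 over 2 to 10 UMIs per cell labelled KO. Clec9a had a median of 1 UMI in both libraries and at most 3 and 7. No difference is read from either gene, since both chose the cells. In GRCm38 Xcr1 lies at chr9:123852315-123862029 and Clec9a at chr6:129408862-129424763. The other markers lie at chr10:43578284-43584265 (Cd24a), chr14:32959547-33185508 (Wdfy4), chr11:73090583-73147446 (Itgae) and chr5:92257659-92278170 (Naaa), and all 6 are protein-coding.

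**Figure D1:**
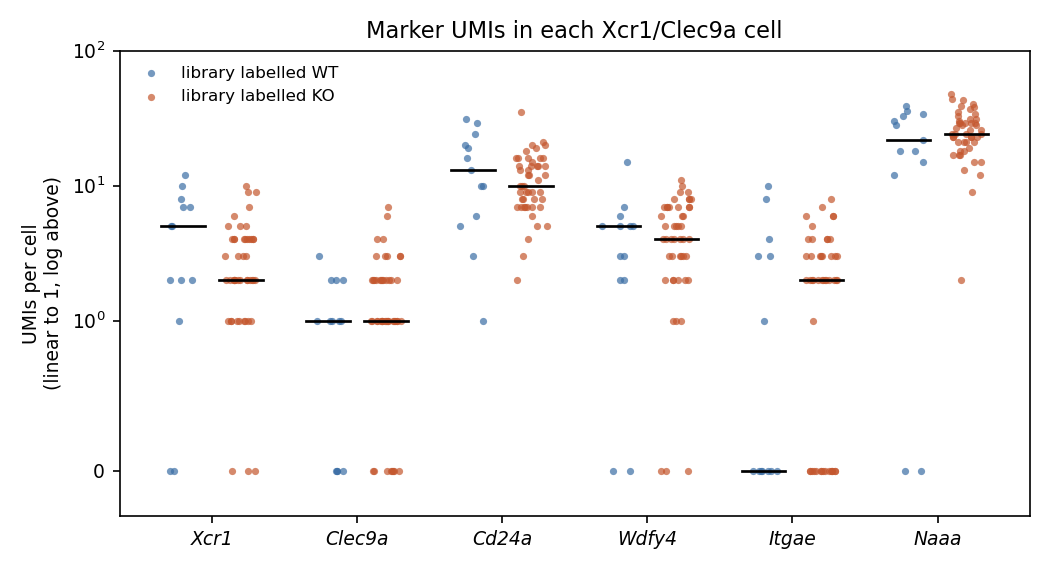
UMIs of Xcr1, Clec9a, Cd24a, Wdfy4, Itgae and Naaa (x axis) in each of the 13 cDC1s of the library labelled WT (blue) and the 48 of the library labelled KO (orange), on a y axis linear to 1 and logarithmic above, with black bars at the median cell. Cd24a was above 0 in all 61 cells, while Itgae was at 0 in 7 cells labelled WT and 15 labelled KO.

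The 4 markers that the rule did not use were present in most of the cells. Cd24a, the heat-stable antigen CD24, was found in all 61 cells, with 1, 13 and 31 UMIs in the lowest, median and highest cell labelled WT and 2, 10 and 35 in those labelled KO. Naaa, a lysosomal amidase, was found in 11 of 13 and 48 of 48 cells. Wdfy4, which cDC1s need for cross-presentation of cell-borne antigen, was found in 11 of 13 and 45 of 48 cells. Itgae, the integrin CD103, was found in only 6 of 13 and 33 of 48 cells. All 4 were found together in 6 and 32 cells. To compare shares at equal depth, every cell was drawn down at random to 11500 UMIs, a depth that 10 and 45 cDC1s reached. There Naaa was found in 100% (69.2 to 100) and 100% (92.1 to 100), and in 22.8% and 33.8% of Cd3 cells thinned alike, the level that free RNA can give. Itgae was found in 50% (18.7 to 81.3) and 68.9% (53.4 to 81.8), and in 3.74% and 6.62% of Cd3 cells, some of which carry CD103 themselves.

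Of these 4 markers only Cd24a had a counting interval of its log2 ratio that left out 0. Naaa was at 1392 CPM (1235 to 1564) against 1527 CPM (1443 to 1615), a log2 ratio of 0.13 (-0.054 to 0.32). Wdfy4 was at 283 CPM (215 to 366) against 278 CPM (243 to 317), a log2 ratio of -0.036 (-0.45 to 0.42), and Itgae at 142 CPM (94.9 to 203) against 135 CPM (111 to 163), a log2 ratio of -0.084 (-0.67 to 0.58). Cd24a was at 914 CPM (787 to 1054) against 685 CPM (629 to 745), a log2 ratio of -0.42 (-0.66 to -0.17).

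Not every chosen cell carried the rest of the pattern. In 3 cells, 2 labelled WT and 1 labelled KO, Cd74 was under 100 UMIs, against at least 276 in the other 58, and all 3 had Clec9a without Xcr1. A cell labelled WT had 16 UMIs of Cd209a, 15 of Clec10a, 43 of Ly6c2, 16 of Klf4, 10 of Tcf4, 15 of Iigp1 and 1 of Cd74. The other cell labelled WT had 31 UMIs of Cd74, 6 of Ccr9 and 13 of Ifitm1, and the cell labelled KO had 2 UMIs of Cd74, 2 of Irf8 and 23 of Ly6c2. These cells go against the label, and values without them are given beside the main results that they carry. Another cell labelled KO had 573 UMIs of Lyz2, the lysozyme of macrophages and monocytes, with 38 of Ccl6, 36 of Apoe and 35 of Ccl2 at the highest depth of all, 33704 UMIs, beside 295 of Cd74.

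The 4 unused markers were higher in these cells than in each other class, in both libraries. Cd24a, at 914 and 685 CPM in cDC1s, was at 107 and 72.8 CPM in Cd209a cells, 56.3 and 40.1 in Ccr7 Fscn1 cells, 37.1 and 38.9 in Siglech cells and 28.8 and 28.2 in C1q cells. The nearest class for Naaa was Cd209a cells, at 455 and 401 CPM, and was at 14.3 and 12.3 CPM in Siglech cells. Itgae was at 23.2 and 7.53 CPM in Cd209a cells and at 0 in Ccr7 Fscn1 cells of both libraries. These are descriptions with no test, since the classes were built from genes of the same cells.

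**Figure D2:**
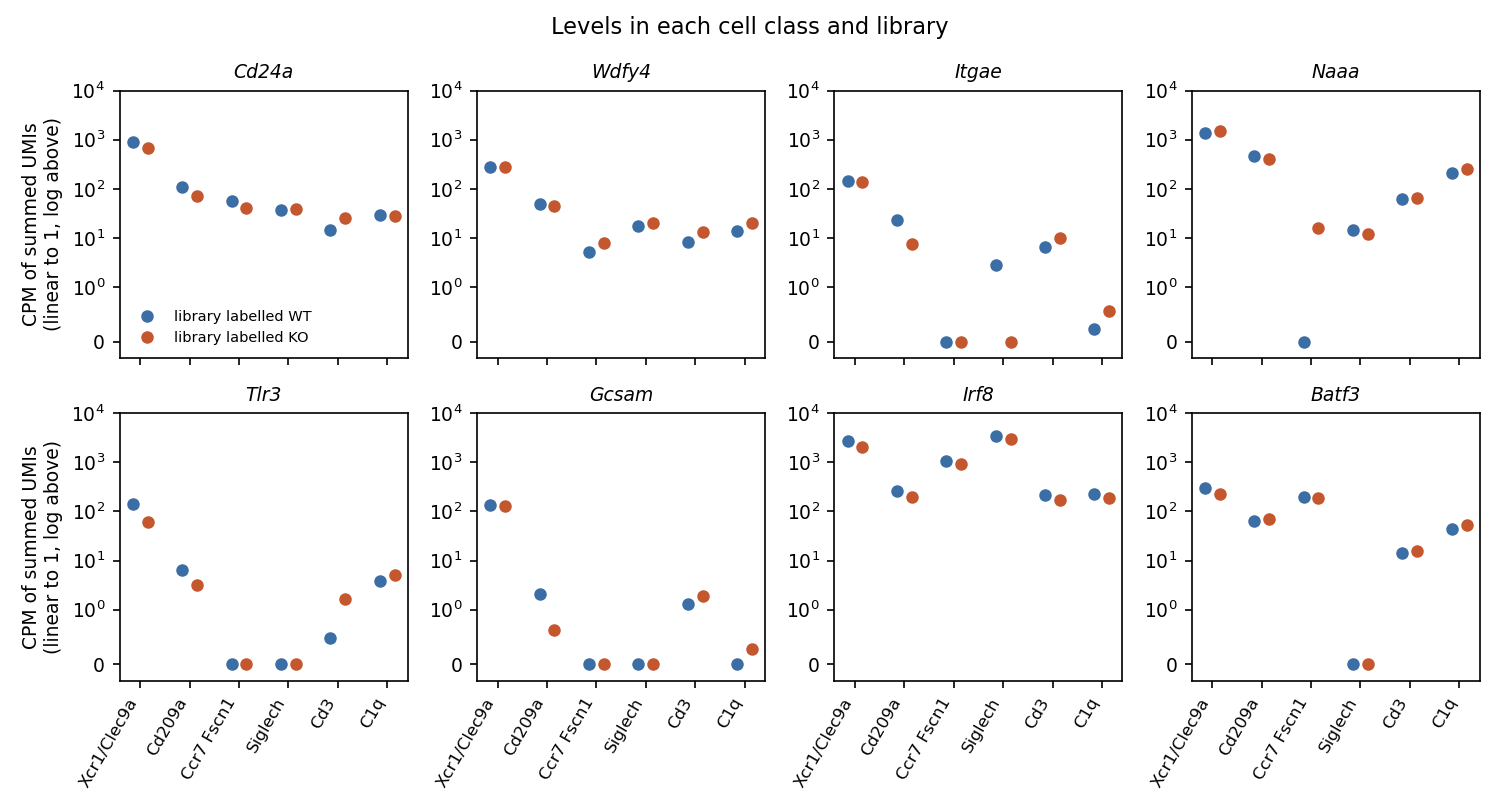
CPM of summed UMIs (y axis, linear to 1 and logarithmic above) of 8 genes in cDC1s (Xcr1/Clec9a) and in 5 other classes (x axis), with 1 point for each library (blue WT, orange KO). Cd24a, Wdfy4, Itgae, Naaa, Tlr3, Gcsam and Batf3 were highest in cDC1s in both libraries, whereas Irf8 was highest in Siglech cells.

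Further genes outside the rule were far higher in cDC1s than in all other cells of the same library, ranked by the smaller of both libraries' log2 ratios. Gcsam, a germinal centre signalling adaptor, had log2 ratios of 7.03 and 6.30 (WT and KO), and A530099J19Rik, an uncharacterised transcript, had 7.47 and 6.69. Sept3, a septin, had 5.69 and 5.06, and Snx22, a sorting nexin, had 4.90 and 4.72. Tlr3, the endosomal sensor of double-stranded RNA, had 6.78 and 4.74, and Btla, an inhibitory receptor, had 4.63 and 3.67. Others among the 20 highest were Mycl, a Myc family factor known in cDC1s, Serpinf1, Dbn1, Tnni2, the growth factor receptor Flt3, the protease inhibitor Cst3 and Ifi205. Cd24a, Wdfy4, Itgae and Naaa were also among these 20.

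Between the libraries, 2221 genes reached 50 UMIs over the 61 cells and were compared. Of these, 63 (2.84%) were at least 2-fold higher and 82 (3.69%) at least 2-fold lower in the library labelled KO, and these shares are the background for each list that follows. The median log2 ratio was -0.13, with 868 genes higher and 1353 lower. Centred on that median, 86 were 2-fold higher and 53 lower.

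**Figure D3:**
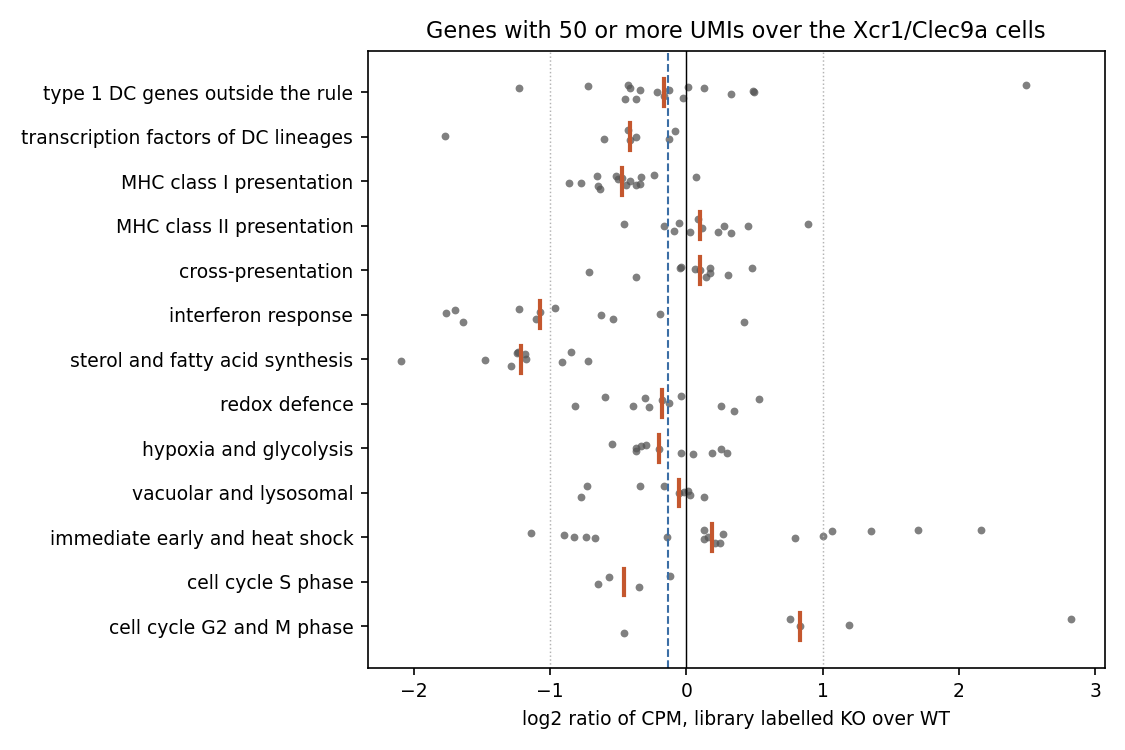
Log2 ratio of CPM in cDC1s, library labelled KO over WT (x axis), for each gene of 13 lists (y axis) with at least 50 UMIs. Each dot is a gene, orange bars are list medians, the dashed line is the median of all 2221 genes (-0.13) and dotted lines mark 2-fold. The interferon and sterol lists have medians of -1.08 and -1.21, left of all other lists.

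Of the 24 genes listed as cDC1 genes outside the rule, 17 reached 50 UMIs, with a median log2 ratio of -0.16. Past 2-fold were Plet1, higher, and Tlr3, lower, in the library labelled KO, but neither stayed past it when 1 UMI of Xcr1 or Clec9a was enough to choose a cell (log2 ratios of 0.56 and -0.86). Cadm1, an adhesion molecule often used to sort cDC1s, was low, at 24.4 CPM (7.93 to 57.0) and 41.0 CPM (28.2 to 57.5), below its 51.7 and 74.7 CPM in C1q cells. Cd8a, carried by cDC1s of lymphoid organs, had 9 and 20 UMIs in 5 of 13 and 13 of 48 cells. Cd207, the langerin gene of skin cDC1s, had 0 UMIs in both libraries. Ly75, the endocytic receptor DEC-205, had 0 and 11 UMIs.

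Of the factors that specify the lineage, Irf8 was in every cell, while Batf3 was found in 10 of 13 and 46 of 48 cells and Id2 in 11 of 13 and 47 of 48 cells. Irf8 was found in all 61 cells, at 9, 42 and 66 UMIs in the lowest, median and highest cell labelled WT and 2, 33 and 71 in those labelled KO. Its level was 2677 CPM (2458 to 2911) against 2014 CPM (1917 to 2114), a log2 ratio of -0.41 (-0.55 to -0.27), and 40 of 48 cells labelled KO were under the median CPM of those labelled WT, although the cells overlap. The ratio was -0.16 when 1 UMI of Xcr1 or Clec9a was enough. Batf3, its partner, was at 293 CPM (224 to 377) against 228 CPM (197 to 264), a log2 ratio of -0.37 (-0.79 to 0.085). Id2, which restrains E proteins, was at 1798 CPM (1619 to 1991) against 1337 CPM (1258 to 1419), a log2 ratio of -0.43 (-0.60 to -0.25). All 7 factors of the lineage list that reached 50 UMIs were lower in the library labelled KO, with a median log2 ratio of -0.41, beside a median of -0.13 over all 2221 genes compared. Klf4, a factor of type 2 dendritic cells, alone passed 2-fold, at -1.77, with 16 of its 26 UMIs labelled WT in 1 of the cells under 100 UMIs of Cd74. It was at -0.69 without those cells and at 0.042 with at least 3 UMIs of Xcr1 and Clec9a. Irf8 and Id2 were also lower in other classes, at log2 ratios of -0.46 and -1.13 in Cd209a cells and -0.33 and -0.50 in Cd3 cells. Irf4, the factor of type 2 dendritic cells, had 0 UMIs in both libraries.

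Flt3, the growth factor receptor that drives these cells' expansion, was at 142 and 168 CPM, a log2 ratio of 0.22 (-0.34 to 0.87). The GM-CSF receptor chains Csf2ra and Csf2rb were at 107 and 155 CPM and 92.8 and 79.4 CPM. These are the 3 of 8 listed growth factor receptors with at least 50 UMIs, and none differed 2-fold. Csf1r, the receptor of macrophage growth factor, had 0 and 21 UMIs.

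Promoters of the markers were read from RefSeq for GRCm38.p6, the assembly of mm10, and 4 of the 6 markers had a window. A spaced composite of the kind bound by BATF with IRF factors, TTTC and TGA with any 4 bases between, on either strand, was present in the windows of Xcr1 and Clec9a and in 4.56% of all 32851 windows of 300 bases. Patterns were chosen after several had been searched in these windows, so a match is a description and not a site. The 250 bases before the annotated start are shown for both genes because their RNA defined the cells, 5′ to 3′ on the gene's strand, with the match in capitals, for Xcr1 at chr9:123862030-123862279 on the minus strand and for Clec9a at chr6:129408612-129408861 on the plus strand.
Xcr1: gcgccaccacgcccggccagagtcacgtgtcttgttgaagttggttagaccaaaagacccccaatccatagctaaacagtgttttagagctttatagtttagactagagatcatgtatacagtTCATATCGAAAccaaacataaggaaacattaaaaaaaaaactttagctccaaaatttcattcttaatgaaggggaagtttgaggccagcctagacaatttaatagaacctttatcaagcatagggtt
Clec9a: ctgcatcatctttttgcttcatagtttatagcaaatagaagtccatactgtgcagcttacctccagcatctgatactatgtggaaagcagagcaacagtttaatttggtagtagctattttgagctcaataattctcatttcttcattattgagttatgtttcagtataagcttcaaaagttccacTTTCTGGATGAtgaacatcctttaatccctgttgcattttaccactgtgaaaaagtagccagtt

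None of the MHC class I and class II genes with at least 50 UMIs differed 2-fold between the libraries. MHC class II genes summed to 57519 and 63775 CPM, a log2 ratio of 0.15 (0.12 to 0.18), and Cd74, the invariant chain, was at 27062 and 28669 CPM. H2-Aa was at 8462 CPM (8068 to 8870.1) against 10615 CPM (10391 to 10842), a log2 ratio of 0.33 (0.25 to 0.40). Per cell, H2-Aa ran from 0 over 133 to 220 UMIs labelled WT and from 0 over 173.5 to 352 UMIs labelled KO. In CPM, 15 cells labelled KO were above every cell labelled WT. All 12 class II genes were compared, 8 were higher and 4 lower, and none differed 2-fold. The size depended on the cells nearly without class II RNA: without the 3 cells under 100 UMIs of Cd74 the summed ratio was 0.052 and that of Cd74 was -0.015.

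MHC class I genes were lower in the library labelled KO. They summed to 13948 and 10516 CPM, a log2 ratio of -0.41 (-0.47 to -0.35), and 14 of 15 compared genes were lower, none of them 2-fold, with a median of -0.47. Over all 2221 genes compared, 1353 were lower and the median was -0.13. Centred on that median, the log2 ratio of the sum was -0.28. B2m, the light chain of class I, was at 3185 against 2526 CPM, log2 ratio -0.34, and 40 of 48 cells labelled KO were under the median cell labelled WT. Psmb8, Psmb9 and Psmb10, the immunoproteasome subunits, had log2 ratios of -0.45, -0.37 and -0.86. Tap1 and Tap2, which carry peptides into the endoplasmic reticulum, had -0.42 and -0.77, and Tapbp, which bridges them to class I, had 0.072. In Cd209a cells the same sum had a log2 ratio of -0.42 and in Ccr7 Fscn1 cells 0.063.

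Genes tied to cross-presentation, counted without Clec9a, which the rule used, summed to 4465 and 4206 CPM, a log2 ratio of -0.087 (-0.19 to 0.021), and of 10 compared 6 were higher and 4 lower, none 2-fold, with a median of 0.079. Cyba and Ncf4, of the phagosomal NADPH oxidase that keeps the compartment from acidifying, had log2 ratios of -0.37 and -0.71. The small GTPase gene Rab43 and the SNARE gene Sec22b had 8 and 32 and 10 and 20 UMIs. Lysosomal genes had a median log2 ratio of -0.055 over 9 compared, with the cathepsins Ctsb at -0.73 (-1.13 to -0.31) and Ctsz at -0.78 (-1.07 to -0.47).

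Maturation genes were sparse in these cells, from which the rule sets Ccr7 Fscn1 cells aside. Of 25 maturation genes 4 reached 50 UMIs, 4 had no UMI and none of those compared differed 2-fold. Cd80 had 0 and 2 UMIs, Cd70 0 and 2, and Cd274, the PD-L1 gene, 0 and 5. Cd86 was at 73.3 against 96.8 CPM, log2 ratio 0.36 (-0.41 to 1.31) and Cd83 at 87.9 against 120.4 CPM, log2 ratio 0.42 (-0.28 to 1.27). Havcr2, which encodes TIM-3, was at 24.4 and 33.5 CPM. Lgals9, the gene of its ligand galectin-9, was at 97.7 CPM (59.7 to 151) against 32.3 CPM (21.1 to 47.3), a log2 ratio of -1.61 (-2.50 to -0.68), on 20 and 26 UMIs. The costimulatory list summed to 415 and 356 CPM, a log2 ratio of -0.23 (-0.58 to 0.15), whereas its 2 compared genes had a median of 0.39.

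Interleukin-12, the cytokine by which cDC1s drive type 1 responses, was not detected beyond 2 UMIs of Il12a in 1 cell labelled WT. Il12b had 0 UMIs in both libraries, where the limit of 3 UMIs is 14.7 and 3.72 CPM. In all, 7 of 15 cytokine genes had no UMI. Tgfb1 was at 229.6 against 215 CPM, log2 ratio -0.11. Il1b had 5 and 83 UMIs, at 24.4 CPM (7.93 to 57.0) against 103 CPM (82.1 to 128), a log2 ratio of 1.95 (0.80 to 3.74), and was found in 4 of 13 and 17 of 48 cells. Its log2 ratio fell under 2-fold, to 0.71, when 1 UMI of Xcr1 or Clec9a was enough, and to 0.35 when cells were thinned to 3000 UMIs before the choice.

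Among chemokines, Cxcl9, which draws Cxcr3-bearing T cells, had 19 and 58 UMIs, and 37 of the 58 came from 1 cell. Cxcl16, the ligand of Cxcr6, was the only one of 7 compared that differed 2-fold, at 58.6 CPM (30.3 to 102) against 155 CPM (129 to 185), a log2 ratio of 1.35 (0.55 to 2.40), in 7 of 13 and 32 of 48 cells, and it was at 0.81 when 1 UMI of Xcr1 or Clec9a was enough. Ccl5 was at 53.7 against 95.6 CPM, log2 ratio 0.78 (-0.088 to 1.89). Ccl2 and Ccl6 had 50 and 58 UMIs labelled KO, of which 35 and 38 were in the cell rich in Lyz2. Ccl22 and Ccl17 had at most 1 UMI in a library. Of the receptors beside Xcr1, Ccr2 was at 191 CPM (135 to 260.5) against 286 CPM (249.8 to 325), a log2 ratio of 0.57 (0.089 to 1.11), and Cxcr3 had 12 and 37 UMIs. The chemokine list summed to 591 and 700.1 CPM and the receptor list, counted without Xcr1 and Ccr7, which the rule used, to 327 and 356 CPM, with log2 ratios of 0.24 (-0.042 to 0.54) and 0.11 (-0.27 to 0.53).

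Tlr3, the sensor among the 20 genes above, was found in 9 of 13 and 28 of 48 cells, with at most 9 and 4 UMIs in a cell. It was at 142 CPM (94.9 to 203) against 60.8 CPM (45.0 to 80.4), a log2 ratio of -1.23 (-1.91 to -0.50), and at 6.32 and 3.14 CPM in Cd209a cells and 3.81 and 5.08 in C1q cells. All 5 compared sensors and adaptors were lower in the library labelled KO, with a median of -0.49, and Tlr3 alone passed 2-fold. Over all 2221 genes compared, 1353 were lower, with a median of -0.13. Without the cells of 5 or more G2 and M UMIs, the log2 ratio of Tlr3 was -0.55. The others compared were Unc93b1 (-0.13), Myd88 (-0.63), Tmem173, which encodes STING (-0.23), and Clec12a (-0.49). Tlr7 and Tlr9, the sensors of plasmacytoid cells, had 0 and 2 and 0 and 1 UMIs. Tlr11, a sensor of profilin, had 4 and 19.

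Interferon-stimulated genes were lower in the library labelled KO. Of 30 measured genes of the list, 11 were compared, of which 6 were at least 2-fold lower and none 2-fold higher, beside 3.69% lower over all genes. The list summed to 2687 and 1269 CPM, a log2 ratio of -1.08 (-1.23 to -0.93). Isg15, an interferon-induced ubiquitin-like protein, was at 435 CPM (349 to 535) against 134 CPM (110.0 to 162), a log2 ratio of -1.70 (-2.12 to -1.28). It had a UMI in 11 of 13 and 22 of 48 cells, and at equal depth in 80% (44.4 to 97.5) and 42.2% (27.7 to 57.8), against 44.0% and 41.8% of Cd3 cells, which can make this RNA themselves. Per cell it ran from 0 over a median of 2 to 21 UMIs labelled WT, with 2 cells at 0, and from 0 over 0 to 18 labelled KO, with 26 cells at 0. Zbp1, a sensor of Z-form nucleic acid, was at 200.3 against 95.6 CPM, log2 ratio -1.08 (-1.63 to -0.48), Usp18, which removes Isg15 from proteins, at 107 against 34.8 CPM, log2 ratio -1.64 (-2.49 to -0.75), and the GTPase genes Ifi47 and Irgm1 at 122 against 36.0 CPM, log2 ratio -1.77 and 97.7 against 45.9 CPM, log2 ratio -1.11. Zbp1 and Usp18 were under 2-fold, at -0.75 and -0.86, when 1 UMI of Xcr1 or Clec9a was enough. Zbp1 was also under it at -0.80 with at least 3 UMIs of Xcr1 and Clec9a and at -0.94 when centred on the median gene. It was at -0.95 without the richest cell of each library and -0.99 without ribosomal and mitochondrial genes. Irgm1 was not followed under the other settings. Irf7 and Bst2 were lower by less, at -0.54 and -0.63, and Irf9, an interferon regulatory factor, had 0.43 (-0.50 to 1.62).

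Some listed genes that did not reach 50 UMIs were rare and unevenly spread. Iigp1, an interferon-induced GTPase, had 31 and 8 UMIs in 4 of 13 and 4 of 48 cells, 15 of the 31 in the cell rich in Cd209a. Gbp2 and Gbp7, of the guanylate-binding proteins, were at 97.7 and 31.0 CPM and 53.7 and 6.21 CPM. Rtp4 had 0 and 11 UMIs, from which no order is read, since the cells held 204681 and 805564 UMIs.

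Per cell the libraries overlapped. The summed interferon list ran over 634, 2709.9 and 6125 CPM in the lowest, median and highest cell labelled WT and 66.5, 1094 and 4052 CPM in those labelled KO. Of 48 cells labelled KO, 46 were under the median cell labelled WT and 13 under its lowest. The cell richest in the list held 20% of the sum labelled WT, and without the richest cell of each library the log2 ratio was -0.95. Without the 3 cells under 100 UMIs of Cd74 it was -0.98. The neutrophil genes S100a8 and S100a9, which dendritic cells do not make, had 8853 and 1294 UMIs over all cells and 22 and 3 in cDC1s. The part of free RNA in the lower interferon RNA was not tested.

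Other classes were also lower for this list in the library labelled KO, with log2 ratios of -0.79, -1.04, -0.21, -0.26 and -0.52 in Cd209a, Ccr7 Fscn1, Siglech, Cd3 and C1q cells. Isg15 itself had -0.67, -2.26, -1.10, -0.76 and -0.91. A difference between classes was not tested.

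The Isg15 promoter is shown because that gene had among the lowest log2 ratios of the list. The pattern GAAANNGAA on either strand, a core of the element bound by IRF factors, was present in 15 of 23 interferon list genes with a window and in 8.56% of all windows. A gene counted when any of its windows matched, so the list is counted per gene and the background per window. In the 250 bases before the start, at chr4:156200819-156201068 on the minus strand, directly upstream of the gene (chr4:156199424-156200818), 3 matches overlap and are in capitals.
Isg15: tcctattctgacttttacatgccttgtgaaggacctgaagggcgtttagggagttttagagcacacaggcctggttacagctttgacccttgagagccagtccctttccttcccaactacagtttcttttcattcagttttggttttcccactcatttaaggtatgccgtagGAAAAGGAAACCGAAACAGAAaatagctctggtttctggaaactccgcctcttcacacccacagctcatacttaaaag

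Sterol synthesis genes formed the other low group. Of 21 measured genes of the list, 10 were compared, all 10 were lower and 7 at least 2-fold, with a median of -1.21. Over all genes compared, 3.69% were at least 2-fold lower. They summed to 3083 and 1328 CPM, a log2 ratio of -1.22 (-1.36 to -1.07). Fdps, which makes farnesyl pyrophosphate, was at 1226 CPM (1079 to 1388) against 520.1 CPM (472 to 572), a log2 ratio of -1.24 (-1.47 to -1.01). It had 5, 16 and 46 UMIs in the lowest, median and highest cell labelled WT and 0, 7 and 30 in those labelled KO, so the cells overlap, with 17 of 48 under the lowest CPM labelled WT. Idi1, the isomerase before it, was at 254 CPM (189.7 to 333) against 59.6 CPM (43.9 to 79.0), a log2 ratio of -2.09 (-2.69 to -1.5), and Hmgcs1, which condenses acetyl groups early in the pathway, at 259 CPM (194 to 339) against 93.1 CPM (73.2 to 117), a log2 ratio of -1.48 (-2.0 to -0.94). Msmo1, Sqle and Insig1 had log2 ratios of -1.56, -1.17 and -1.29, and of -0.93, -0.74 and -0.67 when 1 UMI of Xcr1 or Clec9a was enough. Hmgcs1 was not followed under the other settings.

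All 48 cells labelled KO were under the median cell labelled WT for the summed sterol list. The lowest, median and highest were 615, 3672 and 7799.9 CPM labelled WT and 312, 1187 and 3417 CPM labelled KO. The size of the difference depended on which cells were taken: with a UMI of both Xcr1 and Clec9a required (7 and 37 cells) the log2 ratio was -0.61, and that of Fdps was -0.30. Without the 3 cells under 100 UMIs of Cd74 it was -1.19 for the list, and with 1 UMI of Xcr1 or Clec9a enough -0.71. In the other classes the list had log2 ratios of -0.27, -0.29, -0.069, -0.10 and -0.008, in the order above. These are closer to 0 in every class, and the difference between classes was not tested.

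**Figure D4:**
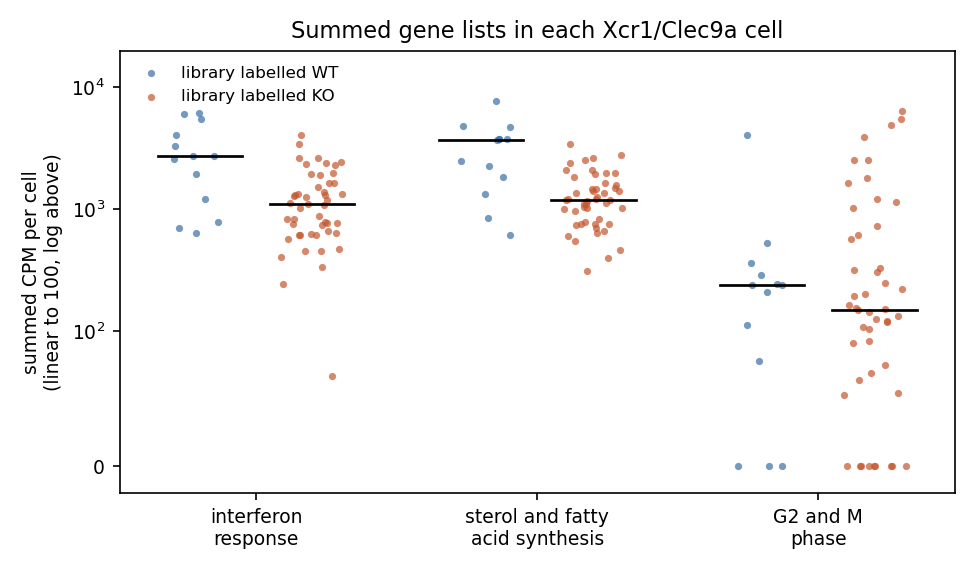
Summed CPM per cell (y axis, linear to 100 and logarithmic above) of the interferon, sterol and G2 and M phase lists (x axis) in the 13 cDC1s labelled WT (blue) and the 48 labelled KO (orange), with black bars at the median cell. All cells labelled KO lie under the WT median for the sterol list. For the G2 and M list the cell with 81 UMIs lies far above the rest labelled WT, while several cells labelled KO are high.

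**Figure D5:**
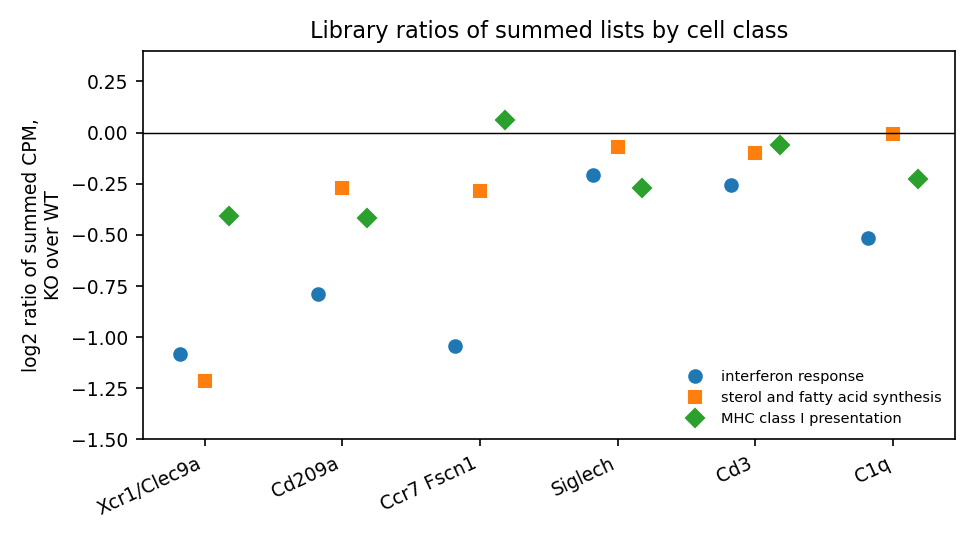
Log2 ratio of summed CPM, library labelled KO over WT (y axis), of 3 lists in cDC1s (Xcr1/Clec9a) and 5 other classes (x axis), 1 point per list and class with no error shown. The sterol list is at -1.22 in cDC1s and between -0.29 and -0.008 in the other classes, whereas the interferon list is below -0.75 in cDC1s, Cd209a cells and Ccr7 Fscn1 cells.

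The Hmgcs1 promoter is shown because 1 of 13 sterol list genes with a window, Hmgcs1, held the sterol response pattern TCACNCCAC, which was in 1.24% of all windows. Here too the list is counted per gene and the background per window. The 250 bases before the start lie at chr13:119690101-119690350 on the plus strand, with the match in capitals.
Hmgcs1: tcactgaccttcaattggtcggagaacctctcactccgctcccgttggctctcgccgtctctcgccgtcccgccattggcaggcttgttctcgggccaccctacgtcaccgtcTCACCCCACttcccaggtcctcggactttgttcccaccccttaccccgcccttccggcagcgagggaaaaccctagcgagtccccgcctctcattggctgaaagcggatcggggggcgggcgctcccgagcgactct

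Cells with RNA of the G2 and M phases were present in both libraries. At least 5 UMIs of the G2 and M phase list were found in 5 of 13 cells (38.5%, 13.9 to 68.4) and 17 of 48 cells (35.4%, 22.2 to 50.5), and after thinning in 2 of 10 and 16 of 45. The list summed to 567 and 943 CPM, a log2 ratio of 0.73 (0.45 to 1.03), and 2 of 5 compared genes were at least 2-fold higher in the library labelled KO. Top2a, the topoisomerase of dividing cells, had 3 and 97 UMIs, a log2 ratio of 2.82 (1.45 to 5.34), of which 2 and 94 UMIs were in those cells, and Stmn1, which destabilises microtubules, had 12 and 255. In the library labelled WT 69.8% of the list came from 1 cell with 81 UMIs. Without the cells of at least 5 such UMIs the log2 ratio was -0.17, without the richest cell of each library 2.10, and with 0 UMIs of Cd3 required -0.75, so neither its size nor its direction held. S phase genes summed to 962 and 796 CPM, a log2 ratio of -0.28 (-0.51 to -0.037).

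Immediate early and heat shock genes, which respond to tissue dissociation, were more often higher than lower in the library labelled KO. Of 18 compared, 12 were higher and 6 lower, 5 at least 2-fold higher (2.84% over all genes) and 1 at least 2-fold lower. The median log2 ratio was 0.19, and that of the sum 0.16 (0.077 to 0.24). Egr1, Atf3 and Btg2 had log2 ratios of 1.70, 1.35 and 1.01, Jund -1.14 and Fos 0.16. Btg2 was under 2-fold in 8 of the other settings, down to 0.41 after thinning to 3000 UMIs, and Jund in 2, at -0.75 with 0 UMIs of Cd3 required and -0.96 without the cells of 5 or more G2 and M UMIs. Egr1 and Atf3 were not followed under the other settings. Hspa1a, the inducible HSP70, had 3 and 61 UMIs, 46 of them in 1 cell, and its log2 ratio turned from 2.16 to -2.03 with 0 UMIs of Cd3 required.

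Redox defence genes, listed because monoamine oxidase makes hydrogen peroxide, summed to 4895 and 3777 CPM, a log2 ratio of -0.37 (-0.48 to -0.27), with none of 11 compared past 2-fold and a median of -0.18. Txn1, thioredoxin, which held 325 UMIs labelled WT, was at 1588 CPM (1419.9 to 1770.2) against 902 CPM (838 to 971), a log2 ratio of -0.82 (-1.01 to -0.62), and Prdx1, which reduces peroxides, at 752 against 498 CPM, log2 ratio -0.60 (-0.87 to -0.32). Gpx4, which protects lipids, had 0.35 and Nfe2l2, which encodes NRF2, had 3 and 32 UMIs. None of 11 measured monoamine genes reached 50 UMIs and 8 of them had none. The serotonin receptor gene Htr7 had 3 and 29 UMIs, a log2 ratio of 1.10 (-0.39 to 3.66). Hypoxia and glycolysis genes had a median log2 ratio of -0.20, with none of 11 past 2-fold, for instance Ldha at -0.37 and Gapdh at -0.041.

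The 15 genes with the lowest log2 ratios included the interferon-inducible Ifitm1 and Ly6a and the sterol genes Idi1 and Msmo1 beside Ifi47, Isg15 and Usp18. Ly6a, the Sca-1 antigen, was at 718 CPM (607 to 844) against 134 CPM (110.0 to 162), a log2 ratio of -2.42 (-2.79 to -2.05), and 47 of 48 cells labelled KO were under the median labelled WT. Ifitm1 had 68 and 31 UMIs with 37 of the 68 in 1 cell and a log2 ratio of -3.10 that turned to 0.35 after thinning, and Klf4, described above, was also among the 15. Ccnd2, which encodes cyclin D2, was at 308 CPM (237 to 394) against 81.9 CPM (63.4 to 104), a log2 ratio of -1.91 (-2.43 to -1.39), and its log2 ratio was -0.85 after thinning to 3000 UMIs. Srsf2, a splicing factor, had -2.17, and Rtn4, Arf6 and Edem1 had -1.83, -1.57 and -1.51. Edem1 was under 2-fold, at -0.88, without the cells of 5 or more G2 and M UMIs.

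Cap1, a regulator of actin turnover, and Apobec3, a restriction factor of retroviruses, differed alike in other classes of these data, which was known when they were listed. Cap1 was at 371 CPM (293 to 465) against 73.2 CPM (55.8 to 94.5), a log2 ratio of -2.34 (-2.86 to -1.83), with 1, 5 and 13 UMIs in the lowest, median and highest cell labelled WT and 0, 1 and 4 in those labelled KO. Its log2 ratio in the other classes, in the order above, was -2.47, -1.82, -1.49, -2.13 and -2.17. Apobec3 was at 34.2 CPM (13.8 to 70.5) against 215 CPM (184 to 249), a log2 ratio of 2.56 (1.58 to 3.99), in 5 of 13 and 47 of 48 cells, and had log2 ratios of 2.37, 2.42, 4.01, 2.63 and 1.83 there. In 28 of 48 cells labelled KO the CPM of Apobec3 was above that of every cell labelled WT. Alad, of the same list of 5 genes, had 11 and 25 UMIs.

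Among the 15 genes with the highest log2 ratios, beside Top2a, Stmn1, Hist1h2ap, Il1b, Hspa1a and Apobec3, were Cd81 and Plet1. Cd81, a tetraspanin, had 1 and 53 UMIs, in 1 of 13 and 21 of 48 cells, a log2 ratio of 3.18 (1.21 to 9.08), which was 0.59 after thinning to 3000 UMIs. Plet1, a surface protein of epithelial progenitors and some dendritic cells, had 5 and 121 UMIs, in 1 of 13 and 17 of 48 cells. Lyz2 had 70 and 1080 UMIs, 573 in 1 cell, and its log2 ratio was 1.96 with that cell and 0.93 without it. The remaining genes were Eps8, Oxa1l, Pcbd2, P2ry10, Trpv2 and Mical1, each with 3 to 5 UMIs labelled WT. Of the 15, Oxa1l was at 0.81 when 1 UMI of Xcr1 or Clec9a was enough and P2ry10 at 0.59 with 0 UMIs of Cd3 required, and Hist1h2ap was at 0.14 without the cells of 5 or more G2 and M UMIs.

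Markers of other cells differed in how much of their RNA was found. Of 13 macrophage markers Mertk had no UMI and Mrc1 had 1, and the list summed to 161 and 209.8 CPM, with 34.9% of the sum labelled KO in 1 cell. Cd3 and C1q genes, which the rule capped, are part of the T cell and macrophage lists. The T cell list summed to 137 and 96.8 CPM, the NK cell list to 103 and 161 CPM, with 67 of its 130 UMIs labelled KO from Klrb1b, and the B cell list to 4.89 and 7.45 CPM. Ms4a1 and Pax5 of the B cell list, Prf1 of the NK cell list and 8 of 11 melanoma markers, Pmel, Mlana and Dct among them, had no UMI. Neutrophil and melanoma markers summed to 122 and 11.2 CPM and 19.5 and 4.97 CPM. The Cd209a dendritic cell list summed to 278 and 197 CPM, 68.4% of the sum labelled WT in 1 cell, and without the 3 cells under 100 UMIs of Cd74 to 64.1 and 179 CPM, the opposite order. Siglech stayed under 2 UMIs in every cell, while the plasmacytoid list, which holds Rnase6 and Ly6c2, summed to 1304 and 713 CPM, and the monocyte list, which holds Plac8, to 2751 and 1717 CPM, with log2 ratios of -0.87 (-1.08 to -0.66) and -0.68 (-0.82 to -0.54). Without those 3 cells these ratios were -0.22 and -0.20. Ly6c2 had a log2 ratio of -1.39, and -0.14 without those cells. Y-linked genes and Xist together had 14 and 82 UMIs in cDC1s. The part of these other transcripts in the differences above was not tested.

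Within the cDC1s, Itgae divided the cells, being found in 39 and absent from 22, and cells with it had median depths of 19658.5 and 16096 UMIs, against 13647 and 15900.5 over all cDC1s. Cd209a was at 7.19 CPM in cells with Itgae and 187 in cells without it. These Cd209a values rest on few cells: all 21 UMIs labelled WT were in 2 cells under 100 UMIs of Cd74, and 33 of 43 labelled KO were in 1 other cell. Counted without the 3 cells under 100 UMIs of Cd74, Cd209a was at 7.19 and 126 CPM. In the library labelled KO, Plet1 was at 198 CPM in cells with Itgae and 34.1 in cells without it, and all 5 of its UMIs labelled WT were in 1 cell. Summed over both libraries, Cd8a was at 18.7 and 50.8 CPM with and without Itgae, and Tlr3 at 93.5 and 41.2. In the library labelled KO alone, Cd8a was at 17.5 and 42.6 CPM, and Tlr3 at 68.3 and 42.6. Both genes went the same way in the library labelled WT. There the gap in Tlr3 was wider, on 6 cells with Itgae and 7 without it. These are sums over cells with no replicate, and the 3 cells under 100 UMIs of Cd74 are all among the 22.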

How the data were processed

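Droplet 3′ libraries were made from 1 pool of tumors per genotype. The authors deposited 1 table of 17232 genes by 5022 cells under a name that says raw counts, but it holds natural log values, ln(1 + UMIs scaled to 10000 per cell). Cell Ranger and mm10 are named in the submitters' processing notes, with no version given in the sources used here. UMIs were recovered as expm1(value) over the cell's smallest nonzero expm1(value), and 100% of nonzero values came out whole within 0.01. All columns were used. Libraries were read from the barcode endings that the labels give.

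UMIs were summed over cDC1s per library, scaled to CPM, and compared as log2 ratios with 0.5 UMIs added and exact conditional intervals. A gene needed 50 UMIs or more over the 61 cells to be counted against 2-fold. Shares of cells were compared after thinning to 11500 UMIs. No doublet caller was run, and cells with above 2 Cd3 or at least 10 C1q UMIs were left out by the rule. The comparison classes required the same Cd3 and C1q limits: Cd209a cells at least 2 UMIs of Cd209a and under 2 of Siglech, Siglech cells at least 2 of Siglech, and Ccr7 Fscn1 cells at least 2 of each. Cd3 cells had at least 3 UMIs of Cd3 genes, and C1q cells at least 10 of C1q genes. Named genes were those of the gene lists, the 15 highest and 15 lowest log2 ratios between libraries, and the 20 genes outside the rule most enriched over all other cells by the smaller of both libraries' ratios. The cells, lists and motifs were chosen with earlier results of these data known. Sums and intervals were tested on simulated counts with counting error only, which is what the intervals assume, so spread between cells was not tested. Python 3.11.15, numpy 2.4.6, scipy 1.17.1 and matplotlib 3.10.9 were used, with gene positions from GENCODE for GRCm38 and promoter windows from RefSeq.

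With 1 library per genotype, no test between genotypes was made, and no p-value is given. Depth limits precision: for a gene with no UMI, the limit of 3 UMIs is 14.7 CPM on the 204681 UMIs labelled WT. In the library labelled KO it is 3.72 CPM.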

Additional observations from a re-analysis of the deposited data

How the results depend on the processing

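No paired analysis was possible because each genotype had 1 library. Of 20 alternative settings, those that left out cells rich in Cd209a (11 and 44 cells left), rich in Lyz2 or low in Cd74, that required Xcr1, and that left out the richest cell were chosen after seeing the data. Requiring 0 Cd3 UMIs left 6 and 25 cells (0.251% and 0.951%), 19 genes higher and 37 lower, and log2 ratios of -0.81 (interferon), -1.41 (sterol) and -0.75 (G2 and M), the last a reversal. Thinning cells to 3000 UMIs before the rule left 5 and 15 cells (0.209% and 0.58%), 25 genes higher and 44 lower, and log2 ratios of -1.38, -0.97 and 0.14. With at least 1 UMI of Xcr1 and Clec9a the shares were 1.003% and 2.74%, and the interferon and sterol ratios -0.83 and -0.71. At least 3 UMIs gave -1.06 for sterol, and a UMI of each gave -0.61 for sterol and 0.35 for G2 and M. C1q below 3 gave 0.36 for G2 and M, and leaving out the richest cell 2.10. Without cells of 5 or more G2 and M UMIs, 30 genes were higher, interferon was -1.37, G2 and M -0.17 and Top2a -0.96. A minimum of 100 UMIs gave 23 higher and 21 lower, a minimum of 20 UMIs 241 and 364, and centring gave 53 lower.

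Genes of class II presentation reversed under some settings. Cd74 had -0.026 without Cd209a-rich cells, -0.015 without cells low in Cd74, -0.023 with Xcr1 required, -0.084 with both genes required and -0.18 after thinning. H2-Ab1 had -0.060 and -0.085, and the class II list -0.00469 and -0.085, under the last 2 of these. Hspa1a had -2.03 with 0 Cd3 UMIs and -4.34 after thinning, Ifitm1 had 0.35 after thinning, and Klf4 0.042 with at least 3 UMIs of Xcr1 and Clec9a. Causes were not tested, and settings that left few cells rest on few UMIs. Among single genes and other lists 1113 values stayed inside the counting interval, 151 left it and 14 changed sign where the interval of the value as reported left out 0. Keeping Ccr7 Fscn1 cells and leaving out cells with Siglech changed no member, so all values of those settings stayed by construction. Leaving out cells rich in Lyz2 and leaving out cells over 2 times the median depth dropped the same cell. The interferon and sterol sums stayed lower in the library labelled KO under every setting run. The settings were run for 67 single genes, which did not include Egr1, Atf3, Hmgcs1 and Irgm1. Of these followed genes, 41 were past 2-fold as reported. When 1 UMI of Xcr1 or Clec9a was enough, 16 of the 41 were under it or turned. After thinning 11 did so, 8 without the G2 and M cells, 7 with 0 Cd3 UMIs, and at most 6 under each of the other settings. Counting error is widest in the library labelled WT, with 13 cells, where 1 cell can hold most of a gene's UMIs.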
